A study of Mus musculus with 4 samples.

Results

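miR-221 and miR-222 are a pair of miRNAs cut from neighbouring hairpins on the mouse X chromosome, and each hairpin can give a mature miRNA from its 3′ arm (3p) and from its 5′ arm (5p). The 4 mature miRNAs miR-221-3p, miR-222-3p, miR-221-5p and miR-222-5p were taken by their exact names, and all 4 were found in each of the 4 samples, among 869 miRNAs found in any sample. The samples are C2C12 myotubes on day 6 of differentiation. C2C12 is a subcloned mouse skeletal myoblast line (strain background 129/Rej in the labels) whose cells stop dividing and fuse in low-serum medium. The NC samples (NC-1 and NC-2) were kept in differentiation medium with horse serum and without guanidinoacetic acid, the precursor of creatine. The GAA samples (GAA-1 and GAA-2) had 20 mM guanidinoacetic acid in the same medium. The labels do not say whether the 2 samples of a group came from separate cultures, so every p-value below measures the spread between these samples only.

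miRNAs guide Argonaute proteins to messenger RNAs, mainly through pairing of the seed, which is bases 2 to 8 of the mature miRNA. The 3p miRNAs of both hairpins are the usual guide strands and are known to repress inhibitors of the cell cycle such as Cdkn1b and Cdkn1c, and they are therefore often described as promoting proliferation. Their level is known to be high in dividing myoblasts and to fall as the cells leave the cycle and fuse. The comparison of NC with GAA asks whether this nutrient changes the miRNAs of differentiating muscle cells.

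The mature sequences are shown first because miRNAs with the same seed can pair with the same target sites. Seed bases are in capitals, and the sequences are those of RefSeq on GRCm38.p6, where 3 of the 4 members were matched by name.
miR-221-3p: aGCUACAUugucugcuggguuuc
miR-222-3p: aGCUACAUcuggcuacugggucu
miR-221-5p: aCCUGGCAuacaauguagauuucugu
miR-1928: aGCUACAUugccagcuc
miR-221-3p and miR-222-3p have the same seed. Counted from the 5′ end, their first 8 bases are identical, and over the whole 23 bases 11 positions match, so that reads of one can be told from reads of the other by the rest of the sequence. Of the 1738 mature miRNAs in the table, miR-1928 alone shares this seed with them. It had no value in any of the 4 samples, and 3 reads, the limit that a count of 0 allows, would correspond to between 0.530 and 0.634 RPM (reads per 1000000 mappable reads). No other miRNA of the table has the seed of miR-221-5p.

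The hairpins are given to show where the arms lie. The arms present in the table are in capitals.
Mir221: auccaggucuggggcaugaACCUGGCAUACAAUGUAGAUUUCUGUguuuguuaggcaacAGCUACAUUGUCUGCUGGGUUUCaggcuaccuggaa
Mir222: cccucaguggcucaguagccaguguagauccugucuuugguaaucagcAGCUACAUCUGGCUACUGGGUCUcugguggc
Mir221 lies at chrX:19146294-19146388 and Mir222 at chrX:19146893-19146971, both on the minus strand (GRCm38), so that Mir222 comes before Mir221 in the direction of transcription. They are 504 bases apart. In the GENCODE M21 annotation no other gene overlaps either hairpin, so neither lies in an annotated exon, intron or UTR of a host gene. The nearest gene is Gm14636, a non-coding transcript on the same strand, whose near end lies 10009 bases beyond Mir222.

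The deposited values are log2(RPM + 1) for each miRNA. The reads behind them were recovered from the equal steps in which RPM rises in each sample. The samples held 4732359 to 5657704 mappable reads and 1653803 to 3134241 miRNA reads. The miRNA reads sum all named miRNAs, and some names held identical values. Thus miR-199a-3p and miR-199b-3p both averaged 4732 RPM, and miR-486a-5p and miR-486b-5p both 5951 RPM. Any reads credited to more than 1 such name count more than once in this sum and in every share. Known miRNAs took 33.6% (NC-1) and 43.6% (NC-2) of the mappable reads without GAA, against 56.3% (GAA-1) and 50.4% (GAA-2) with it. Mean log2(RPM + 1) was higher in GAA for 90% of the 410 miRNAs with a mean of at least 1 RPM, with a median log2 fold change of 0.49, and after division by miRNA reads the median was 0.05. For this reason each member is given both in RPM and as a share of miRNA reads. Within the GAA group, GAA-1 exceeded GAA-2 in RPM for 77.9% of the 366 miRNAs with a mean of at least 10 reads.

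All 4 muscle miRNAs checked (miR-1a-3p, miR-133a-3p, miR-133b-3p and miR-206-3p) were present, with summed levels of 5607 and 7078 RPM in NC and 4513 and 4888 RPM in GAA. Markers of other sources were low. The summed level of 6 blood miRNAs ranged from 11.0 to 14.8 RPM in NC and from 15.9 to 21.02 RPM in GAA, with miR-223-3p at 0 in 3 samples and miR-150-5p at 0 in 2. The 6 did not move together. In RPM 2 had both GAA samples above both NC samples (miR-142a-5p and miR-142a-3p), beside 63.4% of the 410 miRNAs. Another 2 had them below (miR-144-3p and miR-451a), beside 3.41%, and in 2 the groups overlapped. The 2 endothelial miRNAs summed to 11.0 to 12.4 RPM in NC and 11.8 to 18.0 RPM in GAA, and the 2 neuronal ones to 28.0 to 41.4 and 43.1 to 59.8 RPM, nearly all of it miR-9-5p. The 4 epithelial miRNAs summed to between 0.530 and 1.83 RPM. miR-122-5p of the liver was at 0 in both NC samples and at 3.05 and 0.354 RPM in GAA-1 and GAA-2. The GAA-2 value lay below the 0.530 RPM that 3 reads make in that sample, so only GAA-1 stood clear of a count of 0. The part of these markers in the results below was not tested. Since each library comes from a whole culture, fewer cells of a kind and less miRNA per cell cannot be told apart.

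Both 3p miRNAs and miR-222-5p had a higher level in both GAA samples than in either NC sample, in RPM and as a share of miRNA reads, whereas miR-221-5p did not. Together the 4 members took 0.286% and 0.270% of the miRNA reads in NC-1 and NC-2, against 0.464% and 0.336% in GAA-1 and GAA-2, a log2 difference of 0.50 that became 0.27 without GAA-1. The NC samples had a summed level of 1071 ± 155 RPM (SD, n = 2) and the GAA samples one of 2153 ± 653 RPM (SD, n = 2). Their order was the same in every sample, with miR-221-3p highest, followed by miR-222-3p, miR-221-5p and miR-222-5p, and within each group the ranges of neighbours in this order did not overlap. Of the 410 miRNAs with a mean of at least 1 RPM, 63.4% also had both GAA samples above both NC samples in RPM, and 23.7% had them above as a share of miRNA reads. The count of members, 3 of 4 on both scales, is to be read beside these shares, and the members are no independent draws, because they come from neighbouring hairpins.

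**Figure D1:**
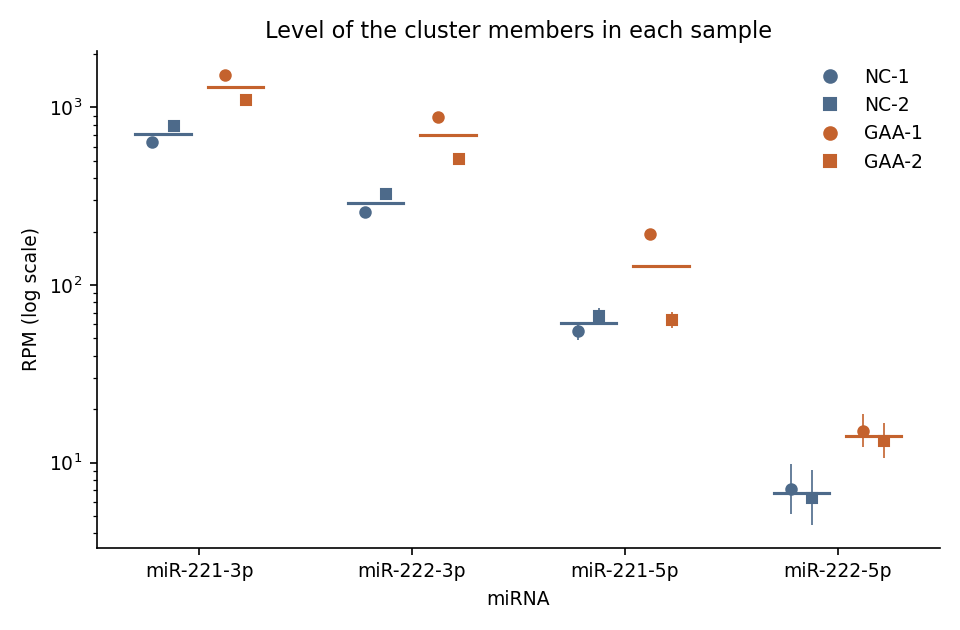
RPM (log axis) of each member in the 4 samples. Points are samples, thin vertical lines are 95% Wilson intervals that cover counting error only, and horizontal bars are the means of 2 samples; GAA-2 of miR-221-5p, at 63.6 RPM, lies between the NC samples, and for the other 3 members both GAA samples lie above both NC samples.

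miR-221-3p, the most abundant member, is the usual guide strand of Mir221. Its reads numbered 3164 (NC-1), 3700 (NC-2), 8472 (GAA-1) and 6220 (GAA-2). These correspond to 642, 782, 1522 and 1099 RPM, respectively. The lower GAA sample lay 318 RPM above the higher NC sample, and GAA-1 was 1.38 times GAA-2. With limma on log2(RPM + 1) over all 869 miRNAs, GAA stood 0.87 above NC on the log2 scale (standard error 0.24, 95% interval 0.20 to 1.53), a 1.82-fold difference, with an adjusted p of 0.230. It ranked 56 and 55 among the miRNAs of NC-1 and NC-2 and 47 and 51 among those of GAA-1 and GAA-2. By mean RPM its neighbours were miR-532-5p just above and miR-322-5p just below, whose log2 fold changes were 0.44 and 0.06.

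Of the miRNA reads, miR-221-3p took 0.191% in sample NC-1 (95% Wilson interval 0.185% to 0.198%) and 0.179% in sample NC-2 (0.173% to 0.185%). With GAA it took 0.270% (GAA-1, interval 0.265% to 0.276%) and 0.218% (GAA-2, interval 0.213% to 0.224%). Both GAA samples stayed above both NC samples, but the difference was smaller than in RPM, at 1.31-fold, or 0.39 on the log2 scale, which became 0.24 without GAA-1. The exact permutation test of the log2 shares gave p = 0.333 (two-sided, n = 2 in each group, adjusted p = 0.60 over 9 such tests), which is the smallest p that 2 samples against 2 allow. These intervals, like all intervals on single samples, cover counting error only.

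miR-222-3p, the usual guide strand of Mir222, showed the largest difference of the 4 members on both scales when all samples were used. Without GAA-1 the difference of miR-222-5p was larger in RPM (0.89 against 0.83 on the log2 scale) and as a share (0.59 against 0.44), and without GAA-2 that of miR-221-5p was (1.65 against 1.61 and 1.11 against 1.06). Without NC-1 miR-222-5p led in share (0.87 against 0.77). The 1264 (NC-1), 1540 (NC-2), 4930 (GAA-1) and 2915 (GAA-2) reads of miR-222-3p corresponded to 257, 325, 886 and 515 RPM. Both GAA samples were above the NC samples, and GAA-1 was 1.72 times GAA-2, whereas the NC samples differed by 1.27 times. The log2 fold change was 1.22 (standard error 0.33, 95% interval 0.31 to 2.14), a 2.33-fold difference, with an adjusted p of 0.219 by limma. Of the 410 miRNAs with a mean of at least 1 RPM, 10 had a larger log2 fold change, and 8.29% exceeded a log2 fold change of 1. By mean RPM it stood between miR-10a-5p and miR-214-3p, whose log2 fold changes were 0.48 and 0.50.

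The order of the groups was the same when miR-222-3p was taken as a share of miRNA reads. The share was 0.0764% (0.0723% to 0.0808%) for NC-1 and 0.0746% (0.0709% to 0.0784%) for NC-2, which overlap within counting error. GAA-1 had a share of 0.157% (0.153% to 0.162%), and GAA-2 had one of 0.102% (0.0986% to 0.106%). The GAA samples thus differed from each other by more than counting error, and the lower of them still lay above both NC samples. The fold difference in share was 1.68 (exact permutation p = 0.333, two-sided, adjusted p = 0.60), or 0.75 on the log2 scale, which became 0.44 without GAA-1 and 1.06 without GAA-2. With limma on the values divided by miRNA reads, the log2 fold change was 0.75 (standard error 0.23, 95% interval 0.23 to 1.26, adjusted p = 0.417), and 23 of the 410 miRNAs had a larger one. On this scale 2.68% of the 410 exceeded a log2 fold change of 1, and 0 of the members did.

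**Figure D2:**
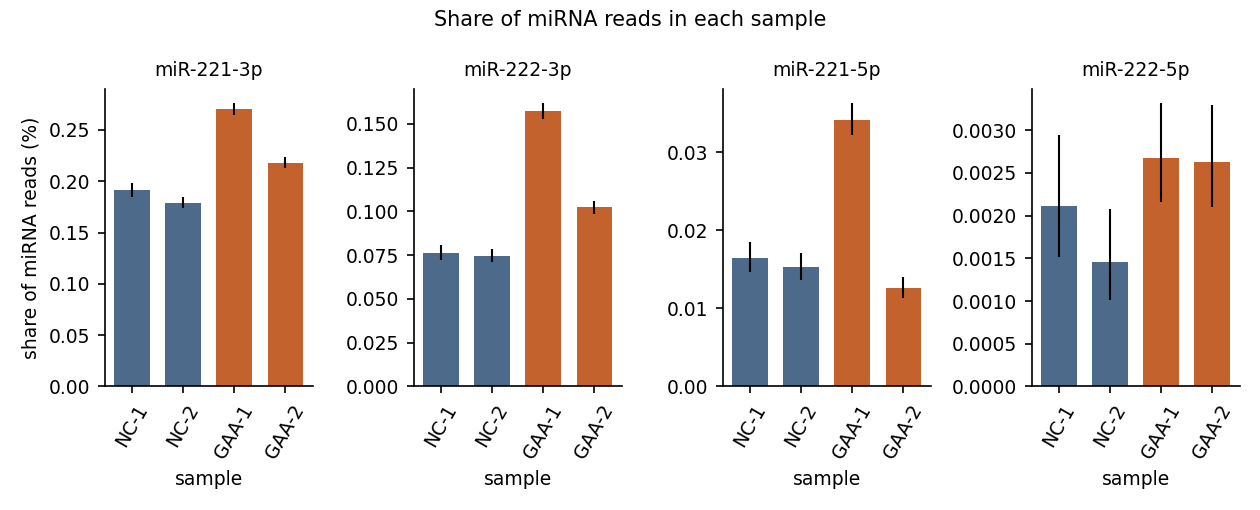
Share of miRNA reads (%) of each member in each sample, on a separate linear axis from 0 for each member. Bars are single samples and black lines 95% Wilson intervals for counting error; both GAA bars are higher than both NC bars for miR-221-3p, miR-222-3p and miR-222-5p, while miR-221-5p is highest in GAA-1 (0.0342%) and lowest in GAA-2 (0.0126%).

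miR-221-5p, from the arm that is usually discarded, was high in 1 GAA sample only. The 4 samples held 272 (NC-1), 316 (NC-2), 1072 (GAA-1) and 360 (GAA-2) of its reads, or 55.2, 66.8, 193 and 63.6 RPM. GAA-1 was high and GAA-2 lay within the range of the NC samples, so that the groups overlapped. The ratio of GAA-1 to GAA-2 was 3.03. On the log2 scale this gap between replicates was 1.58, against a median of 0.30 over 366 miRNAs, of which 0.273% had a larger gap between the GAA samples. The log2 fold change was 0.86 (standard error 0.58, 95% interval -0.75 to 2.47), with an adjusted p of 0.515 by limma. Without GAA-1 it fell to 0.07, and without GAA-2 it was 1.65. Its share of miRNA reads was 0.0164% and 0.0153% in NC, 0.0342% for GAA-1 (0.0322% to 0.0363%) and 0.0126% for GAA-2 (0.0114% to 0.0140%). On this scale GAA-2 was the lowest of the 4 samples. By mean RPM the miRNA stood between miR-188-5p and let-7b-3p, with log2 fold changes of 0.22 and 0.78.

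miR-222-5p, from the arm of Mir222 that is usually discarded, was the least abundant member and the one with the closest GAA samples. Its reads numbered 35 (NC-1), 30 (NC-2), 84 (GAA-1) and 75 (GAA-2), and its level was 7.11, 6.34, 15.1 and 13.3 RPM, with group means of 6.72 ± 0.54 for NC and 14.2 ± 1.3 for GAA (SD, n = 2 each). Both GAA samples were above both NC samples, by at least 6.15 RPM. The log2 fold change was 0.97 (standard error 0.20, 95% interval 0.43 to 1.51, adjusted p = 0.205 by limma), on a scale that understates the change of low values.

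The difference in miR-222-5p was smaller as a share of miRNA reads than in RPM. The NC samples gave it 0.00212% (0.00152% to 0.00294%) and 0.00145% (0.00102% to 0.00207%) of their miRNA reads. The GAA samples gave it 0.00268% (0.00216% to 0.00332%) and 0.00263% (0.00210% to 0.00330%). The intervals of NC-1 and of both GAA samples overlapped, and a difference between these single samples was not tested. The fold difference in share was 1.51 (exact permutation p = 0.333, two-sided, adjusted p = 0.60), or 0.60 on the log2 scale, which became 0.33 without NC-2 and 0.87 without NC-1. By mean RPM the miRNA stood between miR-335-5p and miR-148a-5p, with log2 fold changes of -0.73 and 0.08.

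None of the 4 members passed the thresholds of the study, an FDR below 0.01 with a log2 fold change beyond 1 in either direction. The study applied these thresholds to edgeR on read counts, a test not repeated here, so the calls below are not those of the study. With limma 0 of the 869 miRNAs (0%) passed them, 152 had an unadjusted p under 0.05, and limma voom on the recovered reads called 8, none of them a member. At an unadjusted p under 0.05, 3 of the 4 members were higher in GAA, beside 15.7% of all 869 miRNAs, many of them under 1 RPM. In the limma fit of only the 410 miRNAs with a mean of at least 1 RPM, 3 of the 4 members were, beside 123 of the 410. After division by miRNA reads over all 869, 1 of the 4 (miR-222-3p) was higher at this p, beside 4.37%. On that scale 1 miRNA (0.115%) was called, miR-208b-3p, which was lower in GAA (log2 fold change -3.30, adjusted p = 0.00639 by limma) and is named because it was the only one. Relative to the median of the 410 miRNAs, the members stood 0.37 (miR-221-3p), 0.73 (miR-222-3p), 0.36 (miR-221-5p) and 0.48 (miR-222-5p) higher on the log2 scale in RPM. After division by miRNA reads they stood 0.35, 0.70, 0.34 and 0.52 above the median, respectively. The number of the 410 miRNAs with a larger log2 fold change went from 56 in RPM to 81 after division by miRNA reads for miR-221-3p, from 10 to 23 for miR-222-3p, from 58 to 83 for miR-221-5p and from 40 to 47 for miR-222-5p.

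**Figure D3:**
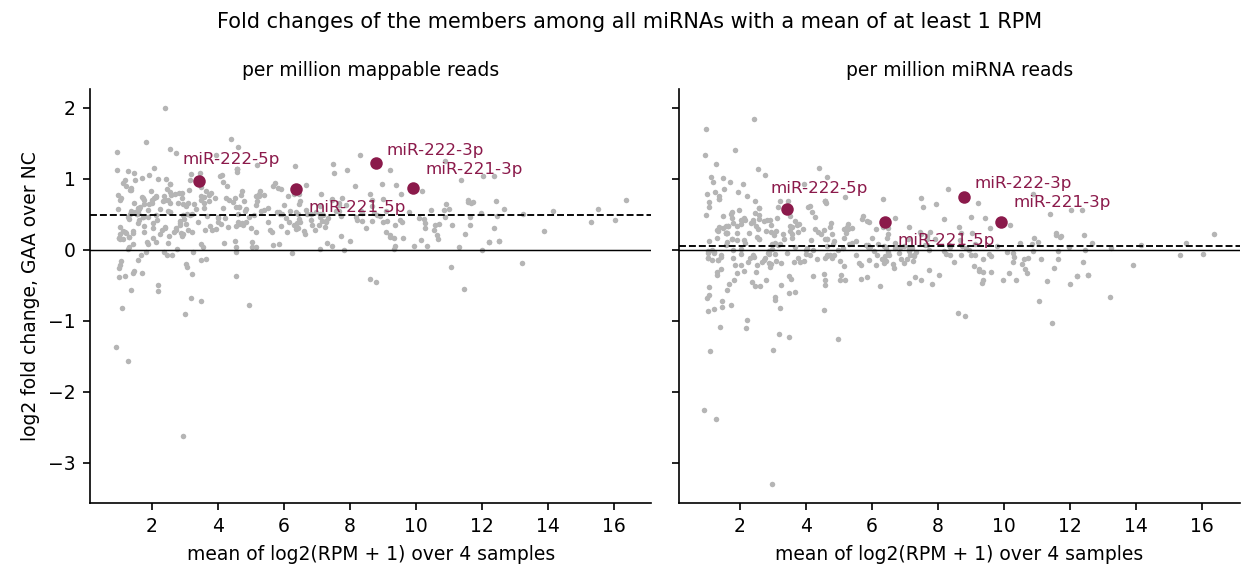
Log2 fold change of GAA over NC against the mean of log2(RPM + 1) for 410 miRNAs with a mean of at least 1 RPM (grey points), per mappable reads (left) and per miRNA reads (right). Dark red points are the 4 members and the dashed line is the median, at 0.49 on the left and 0.05 on the right; all 4 members lie above the median in both panels.

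Ratios within a sample do not depend on any divisor. The reads of miR-222-3p were 0.399 and 0.416 of those of miR-221-3p in NC-1 and NC-2, against 0.582 and 0.469 in GAA-1 and GAA-2. Both GAA samples were higher, and the 95% counting interval of GAA-2 (0.448 to 0.490) lay above those of NC-1 (0.374 to 0.426) and NC-2 (0.392 to 0.442). These intervals cover counting error only, and over all miRNAs the replicates differed by more than that. How often other pairs of miRNAs separate the groups in this way was not counted. The mean partner ratio went from 0.408 ± 0.012 without GAA to 0.525 ± 0.080 with it (SD, n = 2 each). Taken from the mean log2 ratios, the difference was 1.28-fold (exact permutation p = 0.333, two-sided, adjusted p = 0.60). Accordingly, miR-222-3p made up 26.7% and 27.6% of all reads of the 4 members in NC and 33.9% and 30.5% in GAA. miR-221-3p made up 66.8% and 66.2% in NC and 58.2% and 65.0% in GAA. With GAA-1 left out, the log2 difference of the partner ratio was 0.20, against 0.36 with all samples. The partner ratio of the 5p arms, miR-222-5p over miR-221-5p, was 0.129 and 0.0949 in NC, 0.0784 in GAA-1 and 0.208 in GAA-2, so that the GAA samples lay on either side of the NC samples (exact permutation p = 1).

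The balance between the arms of miR-221 was nearly the same in the NC samples and differed between the GAA samples. The ratio of miR-221-3p to miR-221-5p was 11.6 for NC-1 (95% counting interval 10.3 to 13.2) and 11.7 for NC-2 (10.4 to 13.1). GAA-1 had a ratio of 7.90 (7.42 to 8.42) and GAA-2 one of 17.3 (15.5 to 19.2). GAA-1 was below and GAA-2 above both NC samples, each beyond counting error, and the mean log2 difference between the groups was 0.00 (exact permutation p = 1). Among 106 miRNAs with both arms at a mean of at least 10 reads, the gap of 1.13 on the log2 scale between the GAA samples ranked 9, and the median gap was 0.38. The ratio of miR-222-3p to miR-222-5p was 36.1 and 51.3 in NC and 58.7 and 38.9 in GAA. These groups overlapped, and each ratio rests on the few reads of miR-222-5p (exact permutation p = 0.667, two-sided). Over the 106 miRNAs, 33% had arm ratios that did not overlap between the groups, and neither miR-221 nor miR-222 was one of them.

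**Figure D4:**
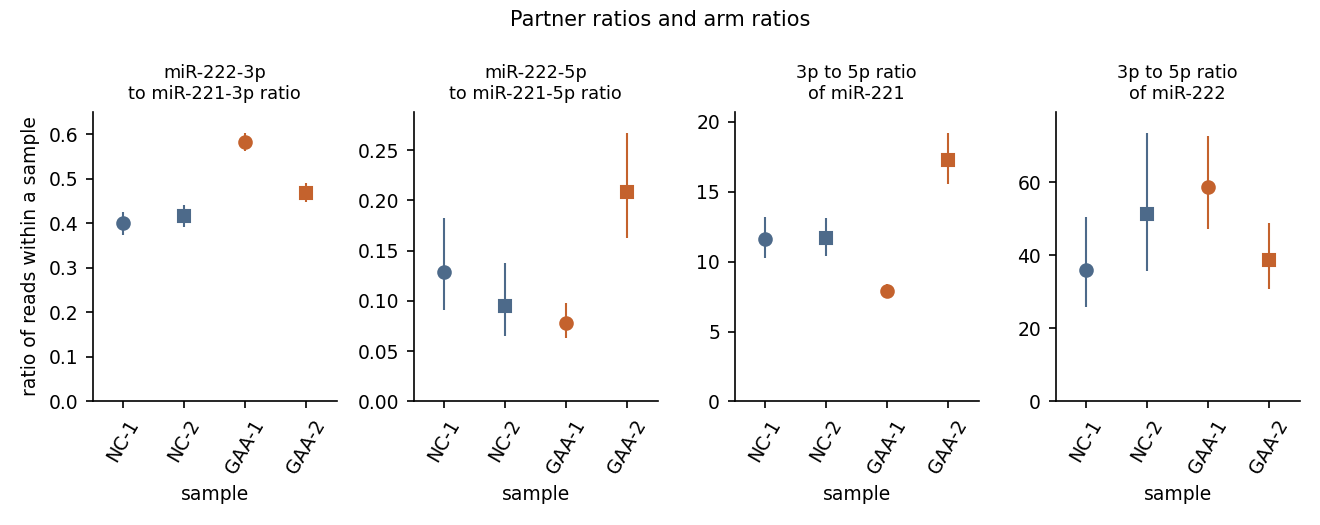
Ratios of reads within each sample, with 95% counting intervals from the Wilson method. The ratio of miR-222-3p to miR-221-3p is higher in both GAA samples (0.582 and 0.469) than in the NC samples (0.399 and 0.416), and the 3p to 5p ratio of miR-221 lies on either side of the NC values in GAA-1 (7.90) and GAA-2 (17.3).

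The miRNAs with the most similar pattern were sought by the Euclidean distance between log2(RPM + 1) values centred over the 4 samples, among 365 other miRNAs with a mean of at least 10 reads. The 3 nearest to miR-221-3p were miR-92a-1-5p (distance 0.0995), let-7e-3p (0.103) and miR-470-5p (0.162). miR-92a-1-5p stood at 28.6 and 34.0 RPM in NC and at 64.3 and 45.4 RPM in GAA, so that it had the same order of samples. The 3 nearest to miR-222-3p were miR-365-3p (0.193), miR-125a-5p (0.248) and miR-146b-5p (0.258). miR-125a-5p, the most abundant of them, stood at 2809 and 3065 RPM in NC and at 7657 and 4738 RPM in GAA. The cluster partners were not nearest to each other. miR-222-3p ranked 98 in closeness to miR-221-3p, and miR-221-3p ranked 12 in closeness to miR-222-3p, at a distance of 0.420. With 4 samples, many miRNAs share such a pattern, and these distances are a description only.

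Other miRNAs linked to proliferation had a median difference close to that of all miRNAs. A list of 12, which holds members of the miR-17-92 and miR-106b clusters with miR-155-5p, miR-31-5p and miR-146b-5p, was found complete. The list was chosen with earlier results of these data known, so its counts are a description only. Of the 12 miRNAs, 0 passed the test. In RPM 7 of them had both GAA samples above both NC samples, beside 63.4% of the 410 miRNAs, and 0 had them below, beside 3.41%. The median log2 fold change was 0.54 beside 0.49 for the 410 miRNAs. On the share scale, 4 were above, beside 23.7%, and 1 below, beside 19%, with a median of 0.08 beside 0.05. miR-146b-5p, the most abundant of the list, stood at 973 and 1528 RPM in NC and at 4072 and 2081 RPM in GAA. miR-31-5p stood at 1490 and 1563 RPM in NC and at 2438 and 2066 RPM in GAA. miR-25-3p, of the miR-106b cluster, stood at 582 and 575 RPM in NC and at 1053 and 938 RPM in GAA. After division by miRNA reads, the log2 fold changes were 0.78 for miR-146b-5p, 0.08 for miR-31-5p and 0.30 for miR-25-3p. On that scale the groups of miR-31-5p overlapped.

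The second list held 12 miRNAs known to be induced during muscle differentiation, the reverse of what is known for miR-221 and miR-222. It was chosen with earlier results of these data known, so its counts are a description only. The study had reported miR-1a-3p and miR-133a-3p, both on this list, as lower with GAA. The median difference of the list lay below that of all miRNAs. In RPM 5 of the 12 had both GAA samples below both NC samples, beside 3.41% of the 410 miRNAs. Another 2 had them above, beside 63.4%, and in 5 the groups overlapped. On the share scale 10 of the 12 were below, beside 19%, and 0 above, beside 23.7%. The median log2 fold change was -0.22 in RPM, beside 0.49 for the 410 miRNAs, and -0.69 as a share, beside 0.05. In RPM 0 of 12 passed the test. After division by miRNA reads 1 of 12 passed it, miR-208b-3p, the single miRNA called on that scale. The 3 most abundant were miR-26a-5p, miR-378a-3p and miR-181a-5p. miR-26a-5p stood at 14724 and 15365 RPM in NC and at 23856 and 20141 RPM in GAA. miR-378a-3p, from an intron of the metabolic regulator gene Ppargc1b, stood at 6869 and 9605 RPM in NC and at 12568 and 10469 RPM in GAA. miR-181a-5p stood at 7820 and 13196 RPM in NC and at 9453 and 8451 RPM in GAA, so that its groups overlapped in RPM. After division by miRNA reads, the log2 fold changes were 0.07 for miR-26a-5p, 0.02 for miR-378a-3p and -0.66 for miR-181a-5p. On that scale the groups of miR-26a-5p and of miR-378a-3p overlapped, and miR-181a-5p had both GAA samples below both NC samples.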

How the data were processed

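Small RNA libraries of 4 samples, 2 without (NC) and 2 with GAA, were analysed, with groups and replicate numbers from the sample titles. The authors trimmed and filtered the reads, aligned what remained to GRCm38 and used miRDeep2 to count miRNAs listed in miRBase 21. Each deposited value is on the log2 scale, as log2(RPM + 1), with RPM the reads per 1000000 mappable reads. A miRNA without reads has no row and was set to 0. The logarithm's base and the added 1 follow from the values.

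RPM rose in equal steps in each sample, and 95.6% of values lay within 0.02 of a whole read, all those of the members among them. GAA was tested against NC by limma 3.58.1 (R 4.3.3; eBayes with a trend, pseudocount 1, no filter, condition as the only term) over 869 miRNAs, with Benjamini-Hochberg adjustment. Calls needed an FDR below 0.01 and a log2 fold change beyond 1 in either direction. The deposited values are on the log2 scale, so limma on these values was the main test. The recovered reads were used with voom as an alternative, which called 8 miRNAs where the main test called 0. Shares and ratios were compared by the exact permutation test (scipy 1.17.1). Intervals on single samples are 95% Wilson intervals.

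Replicates differed by more than sampling noise (chi-square per degree of freedom 146 in NC and 140 in GAA). The labels name no batch. The miRNAs named are the members, those sharing a seed, the 3 nearest in pattern to each 3p member, the neighbours by level, the markers and the 3 most abundant of each list. The members and lists were chosen with earlier results of these data known. Sequences came from RefSeq (GRCm38.p6) and genes from GENCODE M21. Alternatives were other divisors, a pseudocount of 0.1, filters, a replicate block, voom, no trend and each sample left out.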

Additional observations from a re-analysis of the deposited data

How the results depend on the processing

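The log2 fold changes of all 4 members were positive in each of the 15 fits with samples numbered as in the labels. None passed the thresholds in any of them. Filters, the block and the variance trend leave a fold change as it is, so several fits repeat the same value. The fits with a sample left out are in RPM, where 90% of 410 miRNAs were higher in GAA. The shared sign is therefore a description only. Over the 15 fits the log2 fold changes ranged from 0.34 to 1.10 for miR-221-3p, 0.69 to 1.61 for miR-222-3p, 0.07 to 1.65 for miR-221-5p and 0.49 to 1.06 for miR-222-5p. The lowest adjusted p of a member in these fits was 0.0402, for miR-222-3p with the 5 most abundant miRNAs left out of the divisor. The number of miRNAs called across the table rose from 0 to 1 with division by miRNA reads, with median-of-ratios factors and with the 5 most abundant miRNAs left out of the divisor, and to 8 with voom on recovered reads, which also divides by miRNA reads. With the replicate number as a block it was 0, and 6 when the block was combined with division by miRNA reads. Same-numbered samples did not deviate together (correlation -0.20 over 366 miRNAs). Crossing the numbers, a setting chosen after seeing the data, gave 0 and 6. With each sample left out in turn, 0 were called, and 3 or 4 members had the GAA samples above the NC samples. The log2 difference in the share of miR-221-5p then ranged from -0.33 (without GAA-1) to 1.11, and that of the arm ratio of miR-221 from -0.56 to 0.57. The cause of these shifts was not tested. For miR-222-5p the 30 to 84 reads per sample limit what can be seen.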
